A study of Mus musculus with 12 samples.

Results

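Nnmt-OE cells given TGFβ and untreated mock cells are the pair of groups that differ in both the construct and the cytokine, and the sum of the 2 effects is described here as the combined change. The comparison took 6 of the 12 libraries, the 3 of each group as their titles name them, and was read across the 12897 genes that passed a filter on low counts. The cells (im_TEC) were mouse tubular epithelial cells, which line the kidney tubule, immortalised with an SV40 large T antigen that was switched down for 7 days before seeding. Nnmt-OE cells with TGFβ had been transduced with a construct for Nnmt expression, selected on puromycin and given transforming growth factor β (TGFβ) at 10 ng/mL for 48 h. Mock cells had been transduced with a mock construct, selected on puromycin and given no TGFβ. The titles spell the construct Nnmt-OE and the genotype field Nmt-OE. The labels do not give its promoter, whether the cells were 1 clone, or whether the 3 replicates were separate cultures, so the spread that the p-values rest on may be technical. The other groups, Nnmt-OE without TGFβ and mock with TGFβ (3 libraries each), served to split the combined change.

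Nnmt, nicotinamide N-methyltransferase, methylates nicotinamide with S-adenosylmethionine as donor, and so uses up both methyl groups and a precursor of NAD. TGFβ acts through receptor kinases that phosphorylate SMAD proteins, and in kidney tubule cells it is known for inducing genes of the contractile cytoskeleton and the extracellular matrix and for lowering epithelial genes. The actin-dependent regulators YAP and TEAD share many of these targets. Immediate-early genes such as Egr1 and Jun are transcribed within minutes of a growth factor or stress signal and are shut off again by feedback inhibitors such as the phosphatase Dusp1.

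The libraries were 3′ tag libraries, in which each read comes from the end of a message. Reads in genes numbered 5992130, 5865442 and 4845677 in Nnmt-OE with TGFβ and 5745122, 4733846 and 6072745 in mock. Levels are read counts per 1000000 reads in the genes tested after scaling between libraries (CPM), and the 95% interval of a log2 fold change had a median half-width of 0.36 for genes at 10 CPM or more. Of 17 tubular markers, Pax8, Pax2, Lrp2 and Aqp1 lay above 100 CPM in all 6 libraries, while Epcam, Umod, Slc12a3 and Aqp2 had no read in any of the 12. Of 8 fibroblast and pericyte markers, Lum, Col3a1 and Thy1 had no read, and their summed level was 10.7 to 16.1 CPM in Nnmt-OE with TGFβ and 3.37 to 6.53 CPM in mock, of which Col1a1 was 9.16 to 13.5 CPM in Nnmt-OE with TGFβ and 1.42 to 5.51 CPM in mock. The endothelial sum was 1.21 to 7.08 CPM in Nnmt-OE with TGFβ and 0 to 2.12 CPM in mock, with Pecam1, Cdh5, Kdr and Tek at 0. The immune sum was 6.76 to 8.64 CPM in Nnmt-OE with TGFβ and 4.08 to 8.48 CPM in mock, with Adgre1, Itgam and Cd3e at 0. The podocyte sum was 212 to 240 CPM in Nnmt-OE with TGFβ and 203 to 215 CPM in mock, nearly all of it Podxl and Synpo. Mock replicate 1 and Nnmt-OE with TGFβ replicate 3 stood apart from their groups on the 1st and 3rd principal components of the 12 libraries, and the counts below were also taken without both. Outside the comparison, mock with TGFβ replicate 3 stood apart on the 2nd component, at 52.4 against -7.9 and -5.6 in its group. The library codes run in blocks by group, so handling order and group cannot be told apart. The share of reads outside genes was 26.9 to 27.2% in Nnmt-OE with TGFβ and 27.6 to 28.2% in mock, and its part in the results was not tested.

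The transcript named in the construct's label did not separate the groups. Nnmt had 33.9, 22.5 and 26.3 CPM in Nnmt-OE with TGFβ and 24.7, 17.8 and 18.3 CPM in mock. These ranges overlap, since the highest mock library lay above the lowest Nnmt-OE library with TGFβ. The log2 difference was 0.44 ± 0.22 (SE; edgeR adjusted p = 0.347), and its 95% interval ran from 0.01 to 0.88. The levels were 24.5, 28.5 and 22.9 CPM in Nnmt-OE without TGFβ and 33.4, 29.6 and 27.9 CPM in mock with TGFβ. A 3′ tag counts a construct only if its message ends in the gene's own 3′ end, which the labels do not say, so these values may not check the construct at all, and the cells are called by their label throughout.

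In the combined change, 180 genes were higher and 181 lower in Nnmt-OE with TGFβ than in mock, 2.8% of the 12897 tested (1.4% in each direction), at a Benjamini-Hochberg adjusted p below 0.05 in edgeR's quasi-likelihood test, which is what "called" means below. Among genes called above a mean of 10 CPM over both groups, Acta2, smooth muscle α-actin, rose most and Inmt, a methyltransferase, fell most. The changes were moderate. The median called gene moved by 0.59 on the log2 scale, and 25 genes (0.194% of those tested) rose and 37 (0.287%) fell by more than 2-fold. The 3 values of one group lay wholly above or below the 3 of the other in 358 of the 361 called genes (these 358 are 2.78% of all genes tested). With calling left aside, 9.55% of all genes tested lay apart upwards and 9.72% downwards. Lack of overlap was also a condition for naming the largest changes. Where it is given below, it describes the values and adds no support to a call. Without mock replicate 1 and Nnmt-OE with TGFβ replicate 3, 166 genes were called, of which 146 were among the 361. Leaving out 1 library gave 201, 214 and 191 calls without Nnmt-OE with TGFβ replicates 1, 2 and 3 and 253, 287 and 332 calls without mock replicates 1, 2 and 3.

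**Figure D1:**
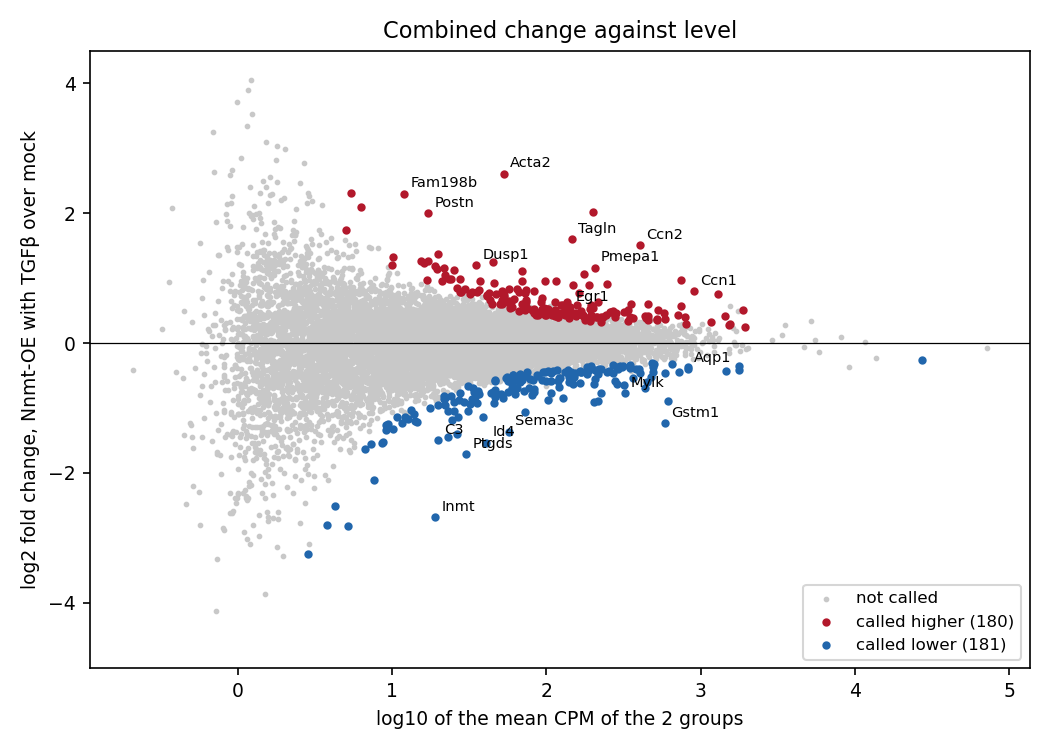
Log2 fold change of Nnmt-OE with TGFβ over mock (vertical axis) against the log10 of the mean CPM of both groups (horizontal axis), with 1 point per gene tested. Called genes are red where higher (180) and blue where lower (181), grey points are not called, 7 genes outside the plotted range are not drawn and none of them was called; Acta2 stands at the top and Inmt at the bottom among genes above 10 CPM.

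Contractile genes had the largest share of members called higher among the lists read. Of 34 members tested, 12 were higher (35.3%) and 1 was lower (2.94%). Of all genes tested 1.4% were called each way, which applies to each list below. The contractile list's median log2 change was 0.34, against 0 for all genes tested. It gave 10 calls in place of 13 without Nnmt-OE with TGFβ replicate 1, and 8 when the change had to exceed 1.2-fold. This list and those below were written with earlier results of these data known, so their counts are not independent evidence. Acta2, smooth muscle α-actin and the usual marker of myofibroblasts, had 109.7, 76.7 and 88.4 CPM in Nnmt-OE with TGFβ and 12.1, 16.3 and 16.7 CPM in mock. Every Nnmt-OE library with TGFβ was above every mock library, and Acta2 rose 6.10-fold (log2 2.61 ± 0.18, edgeR adjusted p = 2.26e-13). Tagln, transgelin, an actin-binding protein of smooth muscle, had 236, 216.5 and 210.2 CPM in Nnmt-OE with TGFβ and 79.6, 64.1 and 75.2 CPM in mock, again with no overlap, and rose 3.02-fold (log2 1.60 ± 0.12, edgeR adjusted p = 1.89e-12). Actn1, α-actinin, which crosslinks actin filaments, is abundant here and had 1601, 1615 and 1653 CPM in Nnmt-OE with TGFβ and 878, 1055 and 964 CPM in mock (log2 0.75 ± 0.08, edgeR adjusted p = 8.41e-09). Tpm1, tropomyosin, which coats those filaments, averaged 2196 ± 57.9 CPM in Nnmt-OE with TGFβ and 1547 ± 101 CPM in mock (SD, n = 3 each; log2 0.51 ± 0.07, edgeR adjusted p = 8.21e-06). The other members that rose were Acta1, Tnnt2, Csrp1, Pdlim7, Tagln2, Tpm4, S100a4 and Cnn3, at log2 changes of 2.09 to 0.30. Acta1, skeletal muscle α-actin, had 16.5, 8.48 and 5.63 CPM in Nnmt-OE with TGFβ and 2.67, 2.76 and 1.80 CPM in mock, and its call was lost without the highest library, Nnmt-OE with TGFβ replicate 1 (edgeR adjusted p = 0.189). The member that fell was Mylk, myosin light chain kinase, which starts contraction, with 235, 225.5 and 256 CPM in Nnmt-OE with TGFβ and 442, 398 and 379 CPM in mock (log2 -0.77 ± 0.09, edgeR adjusted p = 3.65e-07). Sorbs2, an adaptor of actin fibres outside the list, had 58, 61.4 and 70.3 CPM in Nnmt-OE with TGFβ and 28.2, 27.6 and 23.9 CPM in mock and rose 2.38-fold (edgeR adjusted p = 5.59e-06).

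The promoter of Acta2 is shown because this gene rose most among those called above a mean of 10 CPM. It covers 250 bases before to 50 after the start site in RefSeq (GRCm38.p6, chr19:34255324-34255623, minus strand). Capitals mark the letters GGAATG, a site of the TEAD factors, or TGACG, the first letters of a cyclic AMP response element (TGACGTCA), on either strand.
Acta2: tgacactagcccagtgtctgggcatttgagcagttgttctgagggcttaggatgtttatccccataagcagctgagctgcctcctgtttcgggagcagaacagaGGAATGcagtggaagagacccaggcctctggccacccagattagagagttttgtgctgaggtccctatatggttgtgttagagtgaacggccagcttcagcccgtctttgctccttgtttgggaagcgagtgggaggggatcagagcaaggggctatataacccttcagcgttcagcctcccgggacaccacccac
The letters GGAATG stand at -146 from the start site, and 14.7% of the 32851 RefSeq promoter windows of this length hold it on one strand or the other. The SMAD box CAGACA, found in 21% of the windows, stands at -236 on the minus strand. Neither the AP-1 site TGANTCA (7.81% of windows) nor a strict CArG box (1.63%) was found in this window. The CArG box, the site of serum response factor, was searched with no base off its consensus. Near matches, such as ccctatatgg and ccttgtttgg in this sequence, were therefore not counted.

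The known targets of TGFβ that were called were all higher. Of 27 members tested in a list of its early and late targets, 9 were higher (33.3%, against 1.4% of all genes tested) and none was lower. Among the 9 were Acta2, Tagln, Ccn2, Wnt9a, Pdgfb, Junb, Thbs1 and Ctps, and the list's median log2 change was 0.26. The list was made with earlier results of these data known, so its direction is not independent evidence. Ccn2, connective tissue growth factor, had 619, 629 and 557 CPM in Nnmt-OE with TGFβ and 176, 251 and 209 CPM in mock and rose 2.84-fold (edgeR adjusted p = 0.00115). Pdgfb, a growth factor for pericytes and fibroblasts, had 351, 304 and 309 CPM in Nnmt-OE with TGFβ and 171, 185 and 157 CPM in mock (log2 0.91 ± 0.10, edgeR adjusted p = 8.55e-09). Each of these was higher in 3 of 3 Nnmt-OE libraries with TGFβ than in any mock library.

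Among the ligands, latency proteins and receptors of the pathway, 4 of 23 tested were higher (17.4%) and 1 was lower (4.35%), against 1.4% each way. Inhba, the activin A subunit, averaged 130.3 ± 12.8 CPM in Nnmt-OE with TGFβ and 67 ± 4.63 CPM in mock (SD, n = 3 each; log2 0.96 ± 0.12, edgeR adjusted p = 6.82e-07). Fstl1, a secreted follistatin-like glycoprotein, had 1019, 916 and 1040 CPM in Nnmt-OE with TGFβ and 480.2, 556 and 486.5 CPM in mock, a rise of 1.95-fold with no overlap (edgeR adjusted p = 1.07e-10). Thbs1, thrombospondin, which can activate latent TGFβ, rose 1.51-fold, and Tgfb2, one of the TGFβ ligands, rose 1.33-fold (edgeR adjusted p = 1.43e-05 and 0.00656). Ltbp3, which holds latent TGFβ in the matrix, fell by 0.45 on the log2 scale. Of 15 SMADs and feedback inhibitors, Pmepa1, a membrane protein that retains receptor SMADs, had 281, 304 and 269.6 CPM in Nnmt-OE with TGFβ and 134, 131 and 118 CPM in mock and rose 2.24-fold (edgeR adjusted p = 6.26e-11). Smad3, a SMAD that the receptor phosphorylates, had 119, 108 and 121 CPM in Nnmt-OE with TGFβ and 201, 163 and 136 CPM in mock. It fell by 0.52 on the log2 scale (edgeR adjusted p = 0.00661), and the call was lost without Nnmt-OE with TGFβ replicate 2 (0.0594) or without mock replicate 1 (0.0911), the highest library. Id genes encode inhibitors of DNA binding that answer to bone morphogenetic proteins. Of 16 members of their list 2 fell (12.5%, against 1.4% of all genes tested) and none rose. Id2 had 359.5, 347 and 365 CPM in Nnmt-OE with TGFβ and 552, 548 and 524 CPM in mock, and Id4 had 16.2, 21.8 and 25 CPM in Nnmt-OE with TGFβ and 88.1, 40.3 and 53.1 CPM in mock. Neither gene's groups overlapped, and the log2 changes were -0.60 ± 0.09 and -1.53 ± 0.25 (edgeR adjusted p = 3.59e-05 and 0.000477).

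**Figure D2:**
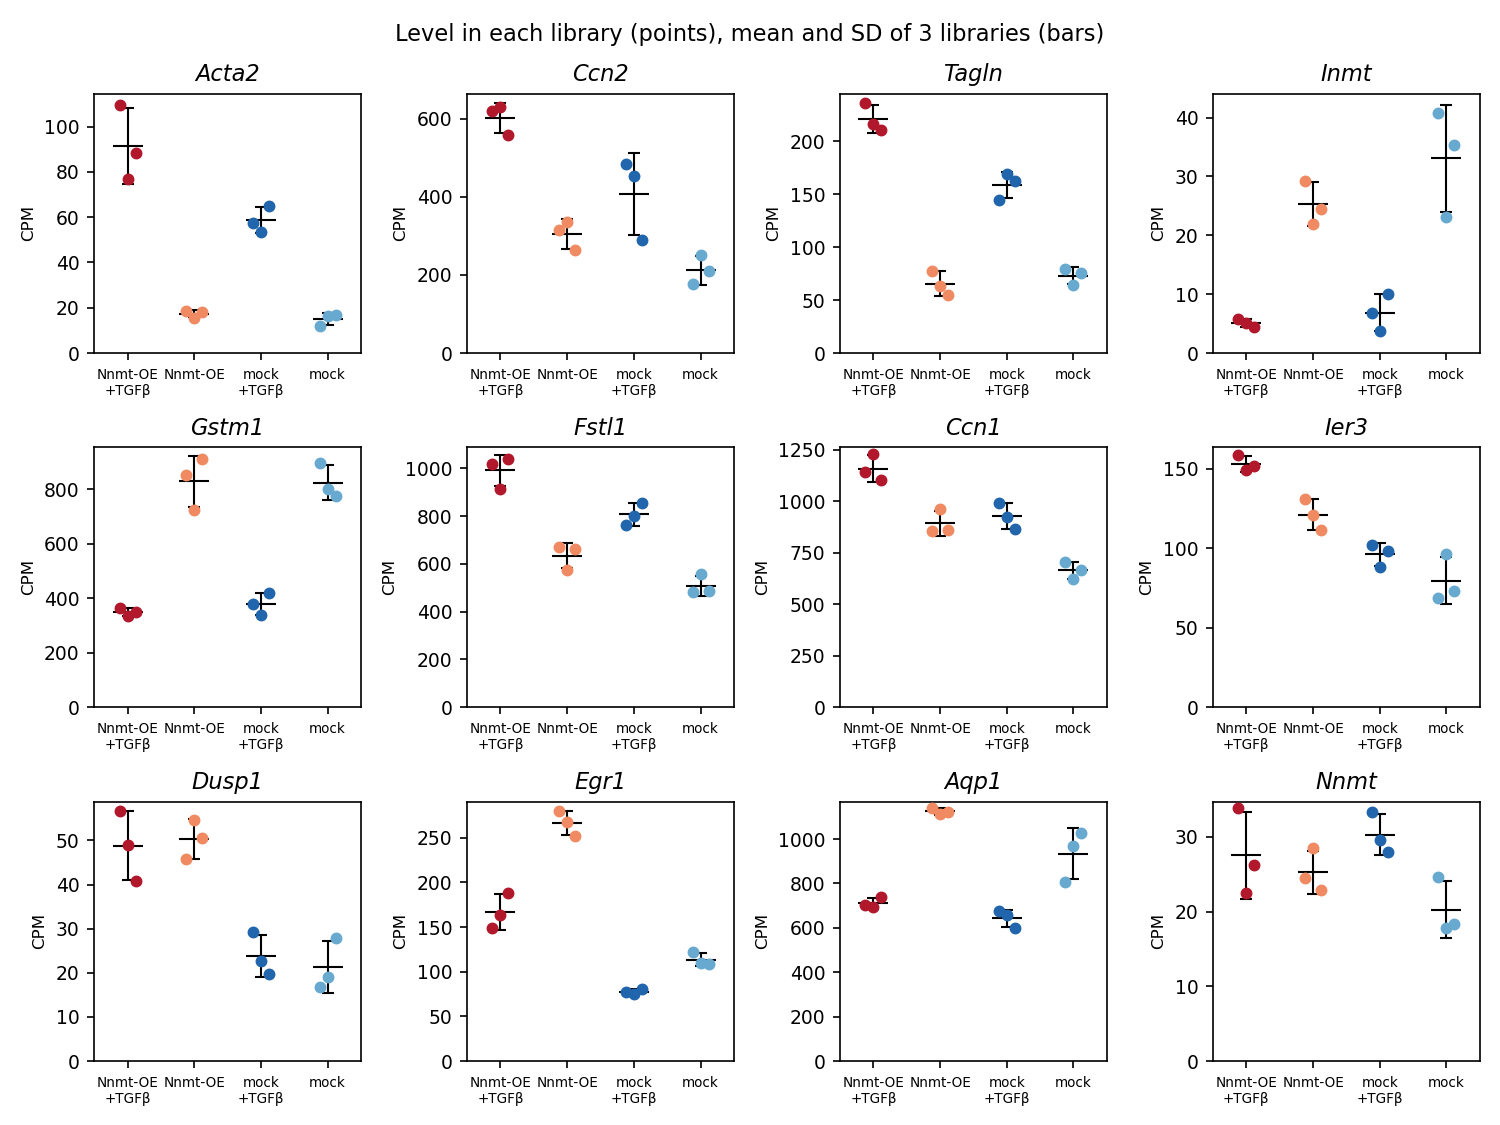
CPM of 12 named genes in each of the 12 libraries, with points for libraries and bars for the mean and SD of 3, in 4 groups from left to right: Nnmt-OE with TGFβ, Nnmt-OE, mock with TGFβ and mock. Acta2 and Tagln were highest in both TGFβ groups, Inmt and Gstm1 lowest in them, Dusp1 and Egr1 higher in both Nnmt-OE groups than in both mock groups, and Nnmt overlapped between the outer groups.

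Matrix genes split in both directions. Of 28 glycoproteins and proteoglycans tested, 7 were higher (25%) and 4 lower (14.3%), against 1.4% of all genes tested each way. The list's median was -0.01. Postn, periostin, a matricellular protein laid down in fibrotic tissue, had 30.7, 30.1 and 21.9 CPM in Nnmt-OE with TGFβ and 5.68, 6.15 and 8.66 CPM in mock and rose 4.01-fold (edgeR adjusted p = 1.02e-05). Ccn4, another protein of the Ccn2 family, had 255, 267 and 213 CPM in Nnmt-OE with TGFβ and 145, 122 and 127 CPM in mock (log2 0.90 ± 0.10, edgeR adjusted p = 1.14e-07). Sned1, a matrix glycoprotein, went the other way, with 13.1, 14.5 and 16.1 CPM in Nnmt-OE with TGFβ and 38.9, 34.6 and 40.9 CPM in mock, a 2.63-fold fall (edgeR adjusted p = 0.000235). The others called were Vcan, Fbln2, Ccn5, Thbs1 and Ccn2 upwards and Abi3bp, Ecm1 and Spp1 downwards, and without Nnmt-OE with TGFβ replicate 1 the list gave 7 calls in place of 11. Of 28 collagens and their processing enzymes DESeq2 called 2 higher and 2 lower, and the list's median log2 change in edgeR was 0.07. By edgeR none was called higher and 2 were lower (7.14%, against 1.4% of all genes tested). These were Col18a1 (-0.44 ± 0.10) and Pcolce (-0.36 ± 0.09) on the log2 scale. Without Nnmt-OE with TGFβ replicate 3 neither was called (edgeR adjusted p = 0.0503 and 0.0715), and Pcolce was also lost without Nnmt-OE with TGFβ replicate 2 (0.105) and without mock replicate 3 (0.0591). Col1a1, a chain of fibrillar collagen, had 9.42, 13.5 and 9.17 CPM in Nnmt-OE with TGFβ and 1.42, 5.51 and 4.74 CPM in mock. Its 3 values lay above those of mock at a low level, with a log2 change of 1.46 ± 0.49 that did not pass (edgeR adjusted p = 0.103). Of 23 proteinases and inhibitors, 5 were higher (21.7%), among them Adamts4, Plaur, F3 and Timp3, and Plat, the tissue plasminogen activator, was lower (4.35%). Without Nnmt-OE with TGFβ replicate 2 or mock replicate 1 the list gave 4 calls in place of 6. Timp3, an inhibitor of metalloproteinases, averaged 618 ± 37.5 CPM in Nnmt-OE with TGFβ and 434 ± 33.6 CPM in mock (SD, n = 3 each; edgeR adjusted p = 0.000105). Of 12 integrin subunits only 1 was called, and it was lower (8.33%, against 1.4% of all genes tested). This was Itga1, a collagen receptor chain, which fell by 0.56 on the log2 scale (edgeR adjusted p = 0.00108).

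Of the targets of YAP and TEAD that were called, most were higher. Of 28 tested, 7 were higher (Ccn2, Gadd45b, F3, Ccn1, Lats2, Ajuba and Tgfb2) and 1, Ptpn14, a YAP inhibitor, was lower. These are 25% and 3.57%, against 1.4% of all genes tested each way, and the median log2 change was 0.15. The list gave 5 calls in place of 8 without Nnmt-OE with TGFβ replicate 3 or without mock replicate 1. Ccn1, a matricellular protein and growth regulator, had 1140, 1230 and 1103 CPM in Nnmt-OE with TGFβ and 705, 621 and 664 CPM in mock. The groups lay apart, and Ccn1 rose 1.75-fold (log2 0.80 ± 0.08, edgeR adjusted p = 3.75e-09). F3, tissue factor, which starts clotting, had 82.3, 85.3 and 80.9 CPM in Nnmt-OE with TGFβ and 45.1, 49 and 46.1 CPM in mock (log2 0.83 ± 0.14, edgeR adjusted p = 0.000138). Gadd45b, a stress protein and known SMAD target, had 86.8, 111 and 85.3 CPM in Nnmt-OE with TGFβ and 30.7, 57.3 and 44.3 CPM in mock (log2 1.10 ± 0.17, edgeR adjusted p = 0.000102). The promoter of Ccn1 is shown as that of a gene called in the combined change and in both of its parts, described below (RefSeq, GRCm38.p6, chr3:145649936-145650235, minus strand, capitals as above).
Ccn1: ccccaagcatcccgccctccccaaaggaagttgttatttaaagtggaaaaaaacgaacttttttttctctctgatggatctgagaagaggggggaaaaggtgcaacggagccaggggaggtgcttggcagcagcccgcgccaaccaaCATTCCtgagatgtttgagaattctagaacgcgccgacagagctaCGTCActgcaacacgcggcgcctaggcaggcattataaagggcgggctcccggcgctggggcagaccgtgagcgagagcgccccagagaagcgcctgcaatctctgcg
It holds 1 GGAATG, read on the minus strand at -103, and 1 TGACG, read on the minus strand at -58. The SMAD box, the AP-1 site and the strict CArG box were not found.

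Of 15 kidney identity factors and proximal tubule genes tested out of 46 listed, 2 were lower (13.3%, against 1.4% of all genes tested) and none higher. Aqp1, the water channel of the proximal tubule and thin limb, had 701, 693.5 and 740.2 CPM in Nnmt-OE with TGFβ and 807.5, 968 and 1028 CPM in mock. The groups did not overlap and the fall was 1.31-fold (log2 -0.39 ± 0.08, edgeR adjusted p = 0.00312). Tfcp2l1, an epithelial transcription factor of the distal nephron and collecting duct, fell 1.54-fold (edgeR adjusted p = 0.000238). Cdh16, the kidney-specific cadherin, had 79.7, 73 and 87.2 CPM in Nnmt-OE with TGFβ and 158.5, 124 and 126.5 CPM in mock and fell 1.71-fold (edgeR adjusted p = 0.000235). It was 1 of 2 called among 14 transcription factors and cadherins of the epithelial to mesenchymal change, both lower. The other was Sox9, a factor of tubular repair, at log2 -0.57 ± 0.16 (edgeR adjusted p = 0.0418), whose call was lost without Nnmt-OE with TGFβ replicate 1 (0.326) or 3 (0.0646) and without mock replicate 1 (0.237) or 2 (0.0745). Of 20 junction and keratin genes tested, Krt8, a keratin of simple epithelia, was called and was higher (log2 0.51 ± 0.13, edgeR adjusted p = 0.0205). That call was lost without any one Nnmt-OE library with TGFβ (0.0549, 0.12 and 0.0532) or mock replicate 1 (0.123).

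Genes of tubular injury and repair divided, with 6 of 29 higher (20.7%) and 5 lower (17.2%), against 1.4% of all genes tested each way. Among those lower were Sema3c, a secreted guidance protein, with 28.3, 29.8 and 38.6 CPM in Nnmt-OE with TGFβ and 92, 81.2 and 74.7 CPM in mock (2.58-fold lower, edgeR adjusted p = 1.14e-07), and Cp, ceruloplasmin, the copper carrier. Havcr1, kidney injury molecule 1, was higher at a log2 change of 0.84 and a low level, 34.1 CPM in Nnmt-OE with TGFβ and 19.0 CPM in mock. The list gave 5 calls without Nnmt-OE with TGFβ replicate 1 and 7 without its replicate 3 or mock replicate 1, in place of 11. Complement, acute-phase and prostaglandin genes had the lowest median of the lists with more than 5 members tested, -0.76. Of 16 tested, 5 were lower (31.2%, against 1.4% of all genes tested) and none higher. C3, the central complement protein, had 9.92, 12.8 and 8.34 CPM in Nnmt-OE with TGFβ and 32.3, 28 and 27.4 CPM in mock, apart in all libraries, and fell 2.81-fold (edgeR adjusted p = 0.000306). Ptgds, prostaglandin D synthase, had 15, 13 and 14.6 CPM in Nnmt-OE with TGFβ and 54.2, 44.1 and 41.5 CPM in mock and fell 3.28-fold (edgeR adjusted p = 1.34e-07). Cp had 316, 333 and 355 CPM in Nnmt-OE with TGFβ and 576, 542 and 508 CPM in mock (log2 -0.70 ± 0.09, edgeR adjusted p = 5.62e-07). The remaining members called, Lbp and Lcn2, are secreted in defence against bacteria and were at low levels, and the list gave 3 calls without Nnmt-OE with TGFβ replicate 1 or mock replicate 1.

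Of 41 secreted cytokines, chemokines and growth factors tested, 7 were higher (17.1%, against 1.4% of all genes tested) and none lower, with a median of 0.21. Among them were Wnt9a, Pdgfb, Bdnf, Cxcl10, Ccl2 and Csf1, and 4 were called without Nnmt-OE with TGFβ replicate 1. Bdnf, brain-derived neurotrophic factor, had 81.5, 74.4 and 64.4 CPM in Nnmt-OE with TGFβ and 42.3, 47.9 and 34.3 CPM in mock. The groups did not overlap, and the log2 change was 0.83 ± 0.17 (edgeR adjusted p = 0.00161). Csf1, the growth factor of macrophages, had 546, 501 and 527 CPM in Nnmt-OE with TGFβ and 396, 431 and 356 CPM in mock (log2 0.41 ± 0.09, edgeR adjusted p = 0.00435). Of 41 genes of the p53 pathway 5 were lower (12.2%, against 1.4% of all genes tested) and none higher, with a median of -0.13. Trp53inp1, a p53-induced protein, had 218, 224 and 225 CPM in Nnmt-OE with TGFβ and 408, 307 and 291 CPM in mock (log2 -0.59 ± 0.12, edgeR adjusted p = 0.00312). The others were Ccng1, Zmat3, Eda2r and Sertad1. The count was 2 without any one Nnmt-OE library with TGFβ or mock replicate 1, and 3 without mock replicate 2 or 3. It was 1 without mock replicate 1 and Nnmt-OE with TGFβ replicate 3 together. Cdkn1a, the cell-cycle inhibitor p21, differed by 0.19 ± 0.12 on the log2 scale (edgeR adjusted p = 0.53). Of 65 cell-cycle genes 1 was called higher (1.54%, against 1.4% of all genes tested). It was Mcm10, a replication factor, at log2 0.78 ± 0.20 (edgeR adjusted p = 0.0206). Its call was lost without Nnmt-OE with TGFβ replicate 3 (0.235) and without mock replicate 1 (0.129) or 2 (0.0638).

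The pathways that Nnmt draws on were read in 3 lists. Of 36 genes of the methionine cycle and one-carbon metabolism 27 had a positive change, with a median of 0.13. The TGFβ part, described below, called 4 of them higher. In the combined change 8 of the 36 had an unadjusted p below 0.05 in edgeR, as had 1813 of all 12897 genes tested. None of the 36 was called by edgeR, 1 was called higher by DESeq2 and none by limma-voom. The nearest was Aldh1l2, a mitochondrial folate enzyme, with 7.44, 6.75 and 9.38 CPM in Nnmt-OE with TGFβ and 1.78, 2.97 and 3.43 CPM in mock (edgeR adjusted p = 0.111). Of 30 genes of NAD metabolism 2 were lower (6.67%, against 1.4% of all genes tested). Ppargc1a, the coactivator of mitochondrial biogenesis, had 99.8, 87.8 and 90.5 CPM in Nnmt-OE with TGFβ and 114, 177.5 and 152 CPM in mock (1.59-fold lower, edgeR adjusted p = 0.000832). Nampt, which makes nicotinamide mononucleotide from nicotinamide, was lower at log2 -0.43 ± 0.12 (edgeR adjusted p = 0.0442). That call was lost without Nnmt-OE with TGFβ replicate 1, 2 or 3 (0.291, 0.0725 and 0.0697) and without mock replicate 2 or 3 (0.0839 and 0.201). Of 47 methyltransferases that use S-adenosylmethionine, 1 was higher (2.13%) and 3 were lower (6.38%). Inmt, indolethylamine N-methyltransferase, an enzyme of the same family as Nnmt, had 5.79, 5.19 and 4.38 CPM in Nnmt-OE with TGFβ and 40.9, 23.1 and 35.3 CPM in mock. Inmt fell 6.43-fold (log2 -2.68 ± 0.31, edgeR adjusted p = 8.04e-08), the largest fall among genes called above a mean of 10 CPM. Prmt1, the main arginine methyltransferase, had 140.2, 130.3 and 145.5 CPM in Nnmt-OE with TGFβ and 78.3, 106 and 85.1 CPM in mock and rose 1.55-fold (edgeR adjusted p = 0.0018). The list gave 2 calls in place of 4 without Nnmt-OE with TGFβ replicate 2 or 3 or mock replicate 2. Ezh1, a histone methyltransferase, was lower and lost its call without Nnmt-OE with TGFβ replicate 2 or 3 (0.228 and 0.08) and mock replicate 1 or 2 (0.122 and 0.0611).

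In the list of NRF2 targets and glutathione enzymes, more members were called lower than higher. Of 55 members tested, 9 were lower (16.4%) and 1 higher (1.82%), against 1.4% of all genes tested each way, with a median of -0.05. Gstm1, a glutathione S-transferase, had 364, 335 and 349 CPM in Nnmt-OE with TGFβ and 896.5, 800.3 and 774 CPM in mock. The groups were far apart, and Gstm1 fell 2.36-fold (log2 -1.24 ± 0.09, edgeR adjusted p = 8.95e-13). Its relatives Gstm2 (2.09-fold lower, edgeR adjusted p = 1.07e-06) and Gstm7 (-1.09 on the log2 scale) were lower too, and reads may be shared between these near copies. Gpx3, the secreted glutathione peroxidase, averaged 617 ± 38.4 CPM in Nnmt-OE with TGFβ and 840.2 ± 29.4 CPM in mock (SD, n = 3 each; edgeR adjusted p = 0.000306). Tkt, transketolase of the pentose phosphate route, had 255.5, 319 and 319.9 CPM in Nnmt-OE with TGFβ and 415, 444 and 441 CPM in mock (log2 -0.54 ± 0.10, edgeR adjusted p = 0.000477). The others lower were Mgst2, Txnip, Ephx1 and Nfe2l2, the last of which encodes NRF2, and Gsto1 was higher. Of 35 genes of glycolysis and hypoxia 2 were lower (5.71%, against 1.4% of all genes tested). Ndrg1, a hypoxia-induced gene, had 89.7, 92.2 and 93.4 CPM in Nnmt-OE with TGFβ and 159.5, 168 and 167 CPM in mock and fell 1.80-fold (edgeR adjusted p = 1.86e-06). The other of 2 called, Gpi1, a glycolytic isomerase, lost its call without Nnmt-OE with TGFβ replicate 1, 2 or 3 (edgeR adjusted p = 0.295, 0.0539 and 0.0741) and without mock replicate 1 or 2 (0.24 and 0.0674). Of 72 nuclear subunits of oxidative phosphorylation 2 were lower (2.78%, against 1.4% of all genes tested). Neither was called without any one Nnmt-OE library with TGFβ or mock replicate 3, and 1 was called without mock replicate 1. Of 32 genes of the unfolded protein response edgeR, DESeq2 and limma-voom called none in the combined change (3 at an unadjusted p below 0.05 in edgeR). The TGFβ part, described below, called 2 of these 32 higher. Of 75 cytosolic ribosomal proteins 2 were higher, Rps2 and Rps14 (2.67%, against 1.4% of all genes tested). Of the 75, 64 had a positive change and the median was 0.20, and the TGFβ part called 13 higher. Ribosomal proteins made up 1.07 to 1.10% of reads in Nnmt-OE with TGFβ and 0.926 to 1% in mock, and Rps2 had 288, 245 and 256 CPM in Nnmt-OE with TGFβ and 156, 182 and 173 CPM in mock. Rps14 lost its call without Nnmt-OE with TGFβ replicate 1 (edgeR adjusted p = 0.188), and reads of ribosomal proteins can be shared with their pseudogenes. Rora, a clock transcription factor, fell 1.69-fold and Csnk1e, a clock kinase, rose 1.40-fold (edgeR adjusted p = 0.000272 and 0.00205), 2 of the 4 called among 19 clock genes, a count that was 2 without any one Nnmt-OE library with TGFβ or mock replicate 1 or 3. Of 48 interferon-response genes 3 were higher (6.25%) and 2 lower (4.17%), against 1.4% of all genes tested each way. The list gave 2 calls in all without any one Nnmt-OE library with TGFβ or mock replicate 1. Isg15, a ubiquitin-like interferon product, was among the higher and had 74.2, 88.6 and 91.1 CPM in Nnmt-OE with TGFβ and 45.8, 44.8 and 56.9 CPM in mock (log2 0.78 ± 0.17, edgeR adjusted p = 0.00486).

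**Figure D3:**
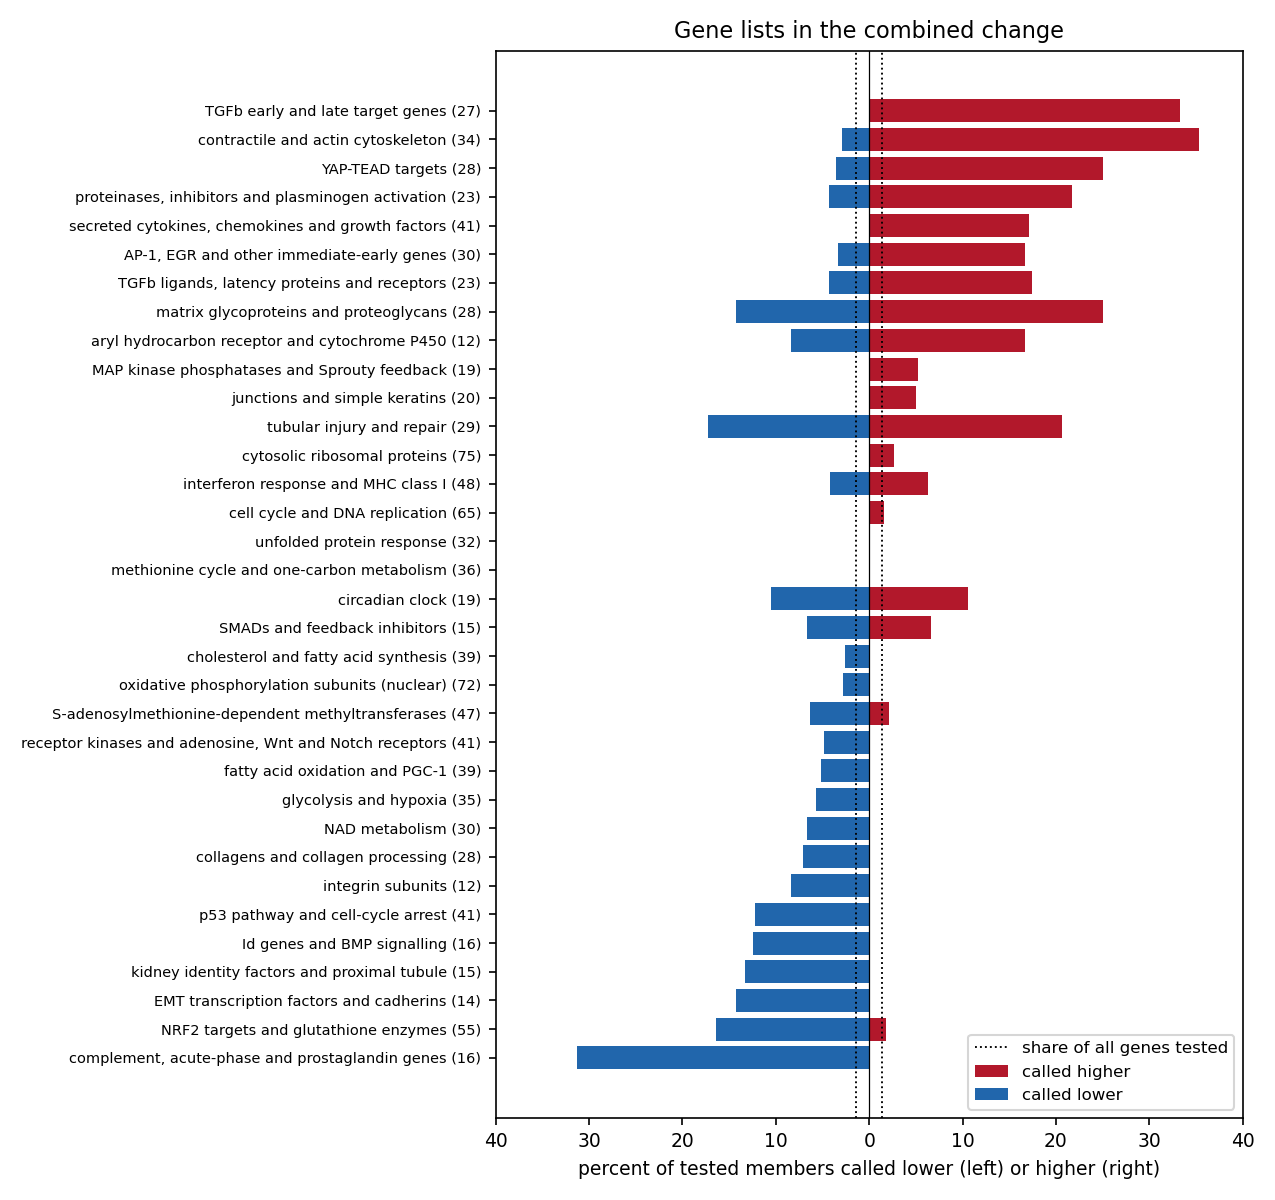
Percent of the tested members of each gene list (number in brackets) called lower (blue, left) and higher (red, right) in Nnmt-OE with TGFβ over mock, ordered by the difference. Dotted lines give the 1.4% of all genes tested that were called in each direction; contractile genes and TGFβ targets reach furthest right, and complement, acute-phase and prostaglandin genes furthest left.

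The combined change is, by its arithmetic, the sum of a TGFβ part, the mean of the TGFβ effects in Nnmt-OE and mock cells, and a construct part, the mean of the construct effects with and without TGFβ. Both parts share libraries with the combined change, so their values are set side by side here and are not separate evidence. The TGFβ part called 320 genes higher (2.48% of those tested) and 335 lower (2.6%), 5.08% in all. Of its calls, 352 were not called in the combined change. Each part takes all 12 libraries and the combined change 6 of them, so standard errors are smaller in the parts. The numbers of calls are therefore not a like comparison. The construct part called 9 higher and none lower, 0.0698%, and 24 higher and 3 lower by DESeq2. Without Nnmt-OE with TGFβ replicate 3 it called 5 in edgeR. It had 804 genes at an unadjusted p below 0.05, a level that a 0.05 share of the 12897 tested would reach with no effect. Among the 180 genes higher in the combined change, the median TGFβ part was 0.40 and the median construct part 0.16 on the log2 scale. Among the 181 lower, they were -0.51 and -0.14. The TGFβ part was the larger in size for 333 of the 361 genes and the construct part for 28. In Acta2 the TGFβ part was 2.18 ± 0.13 and the construct part 0.43 ± 0.13. Inmt had -2.29 ± 0.21 and -0.40 ± 0.21, and Gstm1 had -1.18 ± 0.06 and -0.05 ± 0.06. None of these 3 construct parts passed (edgeR adjusted p = 0.395, 0.805 and 0.935).

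A test of whether the 2 effects departed from a simple sum on the log2 scale called no gene in edgeR (smallest adjusted p = 0.999), DESeq2 or limma-voom. In edgeR, 501 of the 12897 genes tested had an unadjusted p below 0.05, 13 of them among the 361. A 0.05 share of genes would reach that level with no effect. Tagln came nearest to such a departure among the contractile genes described. It had 236, 216.5 and 210.2 CPM in Nnmt-OE with TGFβ, 77.9, 63.7 and 54.7 CPM in Nnmt-OE, 145, 169 and 162 CPM in mock with TGFβ and 79.6, 64.1 and 75.2 CPM in mock. Its TGFβ effect was 1.76 ± 0.12 in Nnmt-OE and 1.12 ± 0.12 in mock cells, a difference of 0.64 ± 0.17 that did not pass over all genes (edgeR adjusted p = 0.999). For Acta2 that difference was 0.44 ± 0.25.

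The 9 genes of the construct part were Egr1, Dusp1, Ier3, Ccn1, Trib1, Fstl1, Junb, Cxcl1 and Jun, and the first 4, Fstl1 and Junb were also called in the combined change. Immediate-early genes as a list had 5 of 30 members higher in the combined change (Ier3, Ccn1, Junb, Egr1 and Ier5), 1 lower (Klf4) and a median of 0.23. These are 16.7% and 3.33% called, against 1.4% of all genes tested each way. Egr1, a zinc-finger transcription factor, was the gene in which the parts ran against each other and the combined change followed the construct. It had 149, 163 and 188 CPM in Nnmt-OE with TGFβ and 122, 110.3 and 109 CPM in mock, which did not overlap, a rise of 1.47-fold (log2 0.55 ± 0.11, edgeR adjusted p = 0.00108). In the groups with 1 change alone it had 279.8, 268 and 252 CPM in Nnmt-OE and 76.8, 75.6 and 80.6 CPM in mock with TGFβ, the highest and the lowest of the 4 groups. Its construct part was 1.17 ± 0.08 and its TGFβ part -0.61 ± 0.08 (edgeR adjusted p = 3.21e-14 and 2.25e-07).

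Dusp1, the phosphatase that inactivates stress-activated MAP kinases, had 56.7, 49 and 40.9 CPM in Nnmt-OE with TGFβ and 16.7, 19.1 and 27.9 CPM in mock and rose 2.29-fold (log2 1.2 ± 0.20, edgeR adjusted p = 0.000165). It had 45.7, 54.7 and 50.7 CPM in Nnmt-OE and 29.1, 22.8 and 19.8 CPM in mock with TGFβ, so both Nnmt-OE groups lay above both mock groups. The construct part was 1.13 ± 0.14 and the TGFβ part 0.06 ± 0.14 (edgeR adjusted p = 4.52e-06 and 0.89). It was the 1 member called of 19 phosphatases and feedback inhibitors of MAP kinases (5.26%, against 1.4% of all genes tested). The promoter of Dusp1 is shown because it was the called gene with the largest construct part whose TGFβ part was near 0 (RefSeq, GRCm38.p6, chr17:26508423-26508722, minus strand, capitals as above).
Dusp1: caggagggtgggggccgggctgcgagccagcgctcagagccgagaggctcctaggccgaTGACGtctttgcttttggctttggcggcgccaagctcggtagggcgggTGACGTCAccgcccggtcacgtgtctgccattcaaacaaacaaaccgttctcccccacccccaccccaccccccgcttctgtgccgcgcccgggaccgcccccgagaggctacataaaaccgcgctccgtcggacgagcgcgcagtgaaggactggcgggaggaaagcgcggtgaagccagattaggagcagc
It holds TGACG 3 times, at positions -191, -143 and -140, the last of them on the minus strand and overlapping the one before, so that the pair reads TGACGTCA. TGACG is found in 20.8% of the 32851 windows. The SMAD box stands at -122 on the minus strand, and the TEAD site, the AP-1 site and the strict CArG box were not found.

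Ier3, an immediate-early gene tied to cell survival, had 159, 149 and 152 CPM in Nnmt-OE with TGFβ, 131, 121 and 112 CPM in Nnmt-OE, 102, 88.1 and 98.3 CPM in mock with TGFβ and 68.8, 96.3 and 73.4 CPM in mock. The Nnmt-OE groups were the higher pair, and the parts were 0.64 ± 0.09 for the construct and 0.31 ± 0.09 for TGFβ (edgeR adjusted p = 1.91e-05 and 0.0238). Ccn1 had 857, 963 and 859 CPM in Nnmt-OE and 989.7, 925 and 863 CPM in mock with TGFβ, between its outer groups, with parts of 0.38 ± 0.06 for the construct and 0.43 ± 0.06 for TGFβ (edgeR adjusted p = 0.00021 and 1.12e-06). Fstl1 had 669, 572.5 and 663.5 CPM in Nnmt-OE and 763, 802.5 and 856 CPM in mock with TGFβ, also in between, with parts of 0.31 ± 0.06 and 0.66 ± 0.06 (edgeR adjusted p = 0.0136 and 1.84e-10). In these 3 genes the mean of each group with 1 change lay between the means of the outer groups. Junb, a subunit of AP-1, had parts of 0.43 ± 0.09 for the construct and 0.26 ± 0.09 for TGFβ, of which the first was called (edgeR adjusted p = 0.028 and 0.0712). Cxcl1, a neutrophil chemokine, Jun, an AP-1 subunit, and Trib1, a pseudokinase, were not called in the combined change (log2 0.59 ± 0.17, 0.24 ± 0.11 and 0.16 ± 0.13; edgeR adjusted p = 0.057, 0.342 and 0.646). In Trib1 the parts ran against each other, 0.55 ± 0.09 for the construct and -0.39 ± 0.09 for TGFβ. Aqp1 was a case of the reverse kind, with 1142, 1112 and 1121 CPM in Nnmt-OE, above the mock libraries, and 674, 656.5 and 599 CPM in mock with TGFβ. Its parts were 0.21 ± 0.06 for the construct, which did not pass, and -0.60 ± 0.06 for TGFβ (edgeR adjusted p = 0.347 and 8.98e-10).

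**Figure D4:**
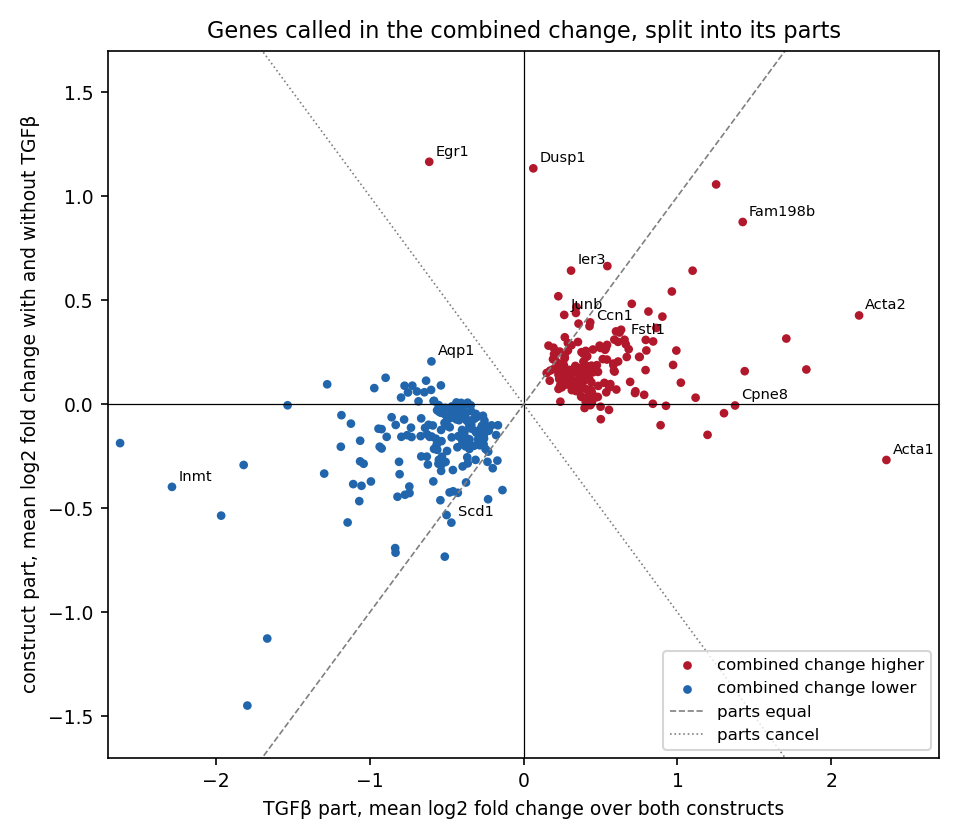
TGFβ part (horizontal axis) and construct part (vertical axis) of the 361 genes called in the combined change, in log2 fold change, red where the combined change was higher and blue where lower. The dashed line marks equal parts and the dotted line parts that cancel; most points lie nearer the horizontal axis, Dusp1 and Egr1 stand highest, and Egr1 is the 1 red point left of the vertical axis.

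Some genes passed in the combined change and in neither part. S100a4, a calcium-binding protein of motile cells, had 401, 389.9 and 400.1 CPM in Nnmt-OE with TGFβ and 262, 314 and 321 CPM in mock (log2 0.41 ± 0.09, edgeR adjusted p = 0.00686), with parts of 0.19 ± 0.07 for TGFβ and 0.22 ± 0.07 for the construct. Scd1, the desaturase that makes oleic acid, had 13.7, 17.6 and 13.8 CPM in Nnmt-OE with TGFβ and 37.3, 29.5 and 26.1 CPM in mock, a 2.06-fold fall (edgeR adjusted p = 0.00468), with parts of -0.47 ± 0.16 and -0.57 ± 0.16. Both genes lay apart in the 2 groups and kept their calls whichever 1 of the compared libraries was left out. Both lost their calls without mock replicate 1 and Nnmt-OE with TGFβ replicate 3 together. S100a4 also lost its call when the change had to exceed 1.2-fold. The same rule named Ppp1r14b, an inhibitor of myosin phosphatase, Ak6, a nuclear adenylate kinase, Nfkb1, a subunit of NF-κB, and Rasa3, an inhibitor of Ras, which rose, and Capn1, calpain, and Ctsa, a lysosomal protease, which fell, at log2 changes of 0.74, 0.46, 0.42, 0.74, -0.75 and -0.46. Each of these 6 lost its call without at least 1 library, at edgeR adjusted p = 0.127 (Ppp1r14b), 0.0947 (Ak6), 0.0741 (Nfkb1), 0.0822 (Rasa3) and 0.0566 (Ctsa) without Nnmt-OE with TGFβ replicate 1. Without its replicate 3, the values were 0.064 (Nfkb1), 0.073 (Rasa3) and 0.0517 (Capn1). Without mock replicate 1 they were 0.0594 (Ppp1r14b) and 0.0816 (Capn1), and without mock replicate 2 0.0505 (Ak6).

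Several other genes of the largest changes stood outside the lists or at low levels. Fam198b, a Golgi protein, had 18, 21.5 and 20.9 CPM in Nnmt-OE with TGFβ and 4.80, 2.33 and 4.90 CPM in mock and rose 4.93-fold (edgeR adjusted p = 2.41e-05). Cpne8, a calcium-dependent membrane-binding protein, had 22, 30.1 and 34.6 CPM in Nnmt-OE with TGFβ and 13.3, 9.97 and 10.1 CPM in mock and rose 2.58-fold (edgeR adjusted p = 0.000727). Plcd4, a phospholipase C, had 9.09, 14.2 and 13.8 CPM in Nnmt-OE with TGFβ and 36.4, 31.4 and 32.9 CPM in mock and fell 2.73-fold (edgeR adjusted p = 7.69e-05). The rule that named these 3 required no overlap between the groups. All 3 kept their calls without each of the compared libraries in turn. Cyp1b1, a cytochrome P450, and Adamts4, an aggrecan-cleaving protease, rose by 1.26 and 1.26 on the log2 scale, and lost their calls without Nnmt-OE with TGFβ replicate 3 (edgeR adjusted p = 0.058) and replicate 2 (0.0545). Scel, sciellin, a protein of the cornified envelope, fell by 2.11 and lost its call without Nnmt-OE with TGFβ replicate 3 (0.0593). Others of the 15 largest changes each way were less steady. Mertk kept its call in 0 of the 6 fits that each left out 1 compared library. Hspb1, Faah and Aamdc kept theirs in 1, Dse, Galns, Apln and Lbp in 2, and Elfn1 and Pdk2 in 3.

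The 6 libraries outside the comparison gave a separate reading of the called genes. They include mock with TGFβ replicate 3, which stood apart from its group, and the reading was not taken without it. Mock with TGFβ against Nnmt-OE without it has the TGFβ effect on one side and the construct effect on the other, and none of its libraries entered the combined change, though scaling and the estimate of spread were shared. Of the 180 genes higher in the combined change, 161 (89.4%) were higher in mock with TGFβ than in Nnmt-OE, with a median of 0.25 on the log2 scale. Of the 181 lower, 172 (95%) were lower, with a median of -0.36. Among all genes tested 50% were higher and the median was 0. This contrast called 147 genes (1.14%), of which 36 were among the 180 and 46 among the 181. Acta2 was at 57.3, 53.6 and 65 CPM in mock with TGFβ and 18.4, 15.7 and 18.1 CPM in Nnmt-OE, and Inmt at 6.87, 3.72 and 10.1 CPM in mock with TGFβ and 29.3, 22 and 24.5 CPM in Nnmt-OE, with no overlap in either gene. Egr1, Dusp1 and Ier3 were among the 19 higher genes that lay the other way, lower in mock with TGFβ than in Nnmt-OE.

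**Figure D5:**
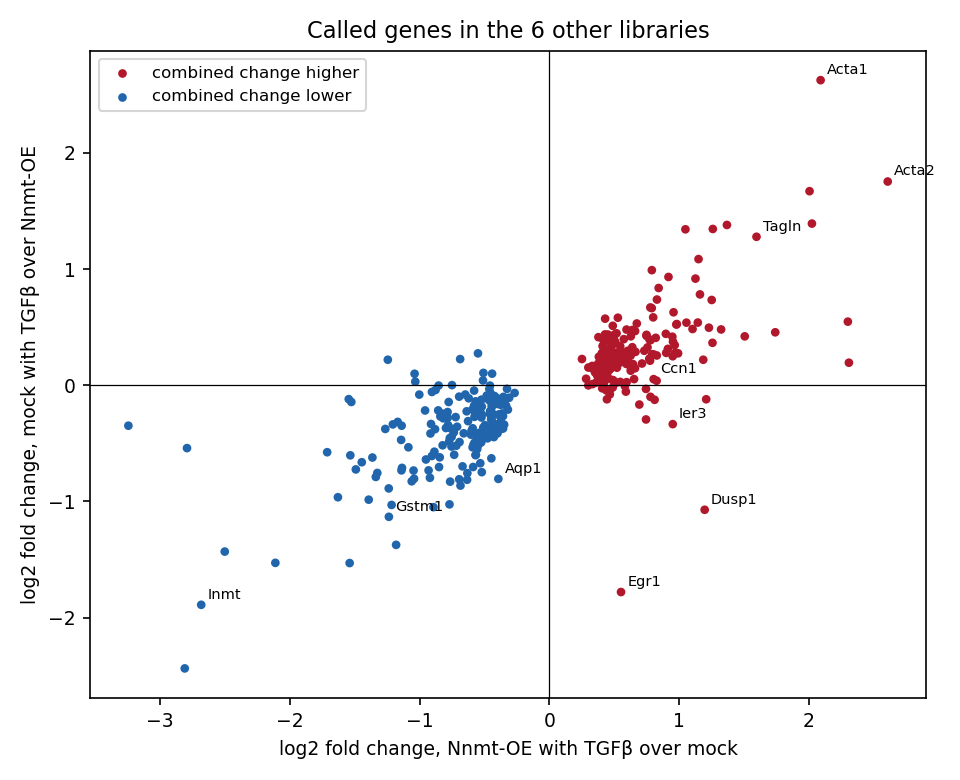
Log2 fold change of mock with TGFβ over Nnmt-OE (vertical axis) against that of Nnmt-OE with TGFβ over mock (horizontal axis) for the 361 called genes, which share no library between the axes. Red points (180, higher) lie mostly above 0 and blue points (181, lower) mostly below, with Egr1 and Dusp1 far below 0 among the red.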

How the data were processed

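The authors deposited a table of read counts per mouse gene for 12 libraries made with QuantSeq 3′ FWD from 100 ng of RNA; molecular identifiers are not named in the labels, so reads were taken as reads. STAR, HTSeq and the build GRCh38 are listed, per the submitters' processing notes, although the gene identifiers are of mouse; the mouse build, the annotation, the versions and the strand of counting are not stated there or in the labels. The 5 summary rows of HTSeq were left out, and reads outside genes were 26.4 to 28.8% of each library. Gene symbols came from the reference tables (55141 of 55487 identifiers, 99.4%).

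Genes were kept by edgeR's filterByExpr (minimum count 10, minimum total 15), which left 12897 of the 20539 with any read. Counts of all 12 libraries were scaled by TMM and fitted together with edgeR 4.0.16 in R 4.3.3 (robust quasi-likelihood F test, 4 group means, no covariate), and p-values were adjusted by Benjamini-Hochberg over all genes tested. CPM are counts divided by these scaled library sizes and put on the usual scale of counts per 1000000 reads. DESeq2 1.42.0, limma-voom (3.58.1), other scalings and filters, and leaving out libraries were the alternatives. Samples were grouped by their titles. Replicates of a group differed by more than sampling noise (chi-square per degree of freedom 4.94 to 18.2), so none was counted as a duplicate. The replicate numbers did not pair the groups (correlations of same-numbered deviations -0.025, -0.006 and -0.042).

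Named genes were the 15 largest changes each way among genes called with a mean of at least 10 CPM in either group and no overlap of values, up to 4 called members of each list by adjusted p (the 2 nearest where fewer than 2 were called), the genes of the construct part, and up to 8 called in neither part; other called list members are named for completeness. The comparison and the lists were chosen with earlier results of these data known. In simulated counts for 12897 genes with 200 changed, the combined contrast recovered 35.8% of 1.5-fold, 50.7% of 2-fold and 87.9% of 4-fold changes, and 9.38% of 128 calls were false. Values of some items are not reported here.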

Additional observations from a re-analysis of the deposited data

How the results depend on the processing

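The combined change gave 191 to 332 calls when 1 of the 6 libraries compared was left out, against 361. It gave 90 when the change had to exceed 1.2-fold. Without mock replicate 1 and Nnmt-OE with TGFβ replicate 3 together, an alternative chosen after seeing the data, it gave 166. Without these and mock with TGFβ replicate 3 it gave 258. Its calls numbered 298 to 468 under other scalings, filters, tools or the 6 libraries alone. The construct part gave 27 calls with DESeq2, 19 with no filter on low counts and 12 with limma-voom, against 9. It gave 5 to 9 when 1 of the 6 libraries compared was left out. It gave 5 without mock replicate 1 and Nnmt-OE with TGFβ replicate 3, and 12 without these and mock with TGFβ replicate 3. No library of Nnmt-OE without TGFβ or of mock with TGFβ was left out on its own. The TGFβ part gave 507 to 795 calls, against 655, and the departure from additivity gave 0 under each alternative run for it, which leaves out the 1.2-fold threshold and the fit of 6 libraries. A fit with the replicate number as a block gave 330 calls in the combined change, 321 of them shared, but the numbers did not pair the libraries. Of 103 called named genes, 42 kept their call under each of 17 alternatives, and none changed direction. Podxl, not called, turned round without Nnmt-OE with TGFβ replicate 3 (-0.024), without it and mock replicate 1 (-0.075) and without the 3 libraries that stood apart (-0.075), and reached 0.138 without Nnmt-OE with TGFβ replicate 2; the cause was not tested.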

Other observations

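Some called genes that no list held are given here as single examples chosen after their values were seen; no list was counted for them, and they stand for no group. Ncl, nucleolin, averaged 1637 CPM in Nnmt-OE with TGFβ and 1227 CPM in mock (log2 0.42), and the nucleolar proteins Npm1, Gar1, Rrs1, Nop16 and Ddx21 were called higher at log2 changes of 0.47, 0.59, 0.66, 0.71 and 0.50. Cct2, Cct3 and Tcp1, subunits of the cytosolic chaperonin, were called higher at log2 changes of 0.36, 0.46 and 0.42. Ctsd, a lysosomal protease, Grn, progranulin, and Tpp1, a lysosomal peptidase, were called lower at log2 changes of -0.37, -0.46 and -0.36, and the values of Tpp1 overlapped between the groups. At a low level, Mgp, matrix Gla protein, averaged 1.25 CPM in Nnmt-OE with TGFβ and 9.10 CPM in mock.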
